A study of Mus musculus with 56 samples.

Results

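Myc, Max, Mxd1, Mxi1, and Mnt were followed through 56 lists of ChIP-seq peaks from mouse bone marrow-derived macrophages (BMDMs), 1 list per sample. The members were chosen by name: every peak whose annotation in the deposited lists names 1 of these 5 genes was taken. This gave 1003 peaks of the 1610519 in all lists, or 0.0623%, for 5 of the 20352 genes to which any list annotates a peak. Max had 288 peaks, Mnt 238, Mxi1 189, Myc 174, and Mxd1 114, and each gene had peaks for more than 1 antibody. Antibodies against 9 targets were used: RNAPII-pS5 and RNAPII-pS2 (RNA polymerase II phosphorylated at serine 5 or serine 2 of its C-terminal domain, marking initiating and elongating polymerase), acetylated lysine 27 of histone H3 (H3K27Ac), the transcription factors PU.1 and p65 (a subunit of NF-κB), the acetyltransferase p300, and the histone deacetylases HDAC1, HDAC2, and HDAC3.

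All cells were wild-type BMDMs of C57BL/6 mice aged 8 to 12 weeks, differentiated for 6 days in L929 supernatant as a source of MCSF, and cross-linked with DSG and formaldehyde. In the first experiment, untreated cells were compared with cells given IL-4 at 20 ng/ml for 1 hr, for all targets except p65 (2 samples per group). In the second, IL-4 was given for 24 hr as a pretreatment (PT) and LPS for the last 1 hr, at 100 ng/ml by the labels (the study's methods give the same figure in nM). Its groups had neither agent (ctrl/ctrl), only the pretreatment (IL-4 PT/ctrl), only LPS (ctrl/LPS), or both (IL-4 PT/LPS), with 2 samples each for RNAPII-pS5, RNAPII-pS2, and p65. IL-4 signals through the transcription factor STAT6, and LPS is a bacterial cell wall component that activates NF-κB. The study describes its replicates as independent biological ones, and the labels do not say whether they came from separate cultures or mice. The p-values measure the spread between the 2 samples of a group, pooled over groups and moderated over all genes or sites. An exact permutation test of 2 against 2 cannot go below p = 0.333. For that reason tests were run with limma over all genes or sites of an antibody. In bulk chromatin, more cells carrying a protein at a site and more of it per cell cannot be told apart.

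Myc is a basic helix-loop-helix leucine zipper transcription factor that promotes growth, ribosome production, and cell division. It binds the E-box sequence as a dimer with Max. Mxd1, Mxi1 (also known as Mxd2), and Mnt compete for Max and bind the same sequence, but they recruit Sin3 corepressors with histone deacetylases and oppose Myc. In macrophages, Myc is known as a gene that IL-4 can raise, whereas Mxd1 is known for its rise during terminal differentiation of myeloid cells.

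The sequences of the sites on which the results turn are given here, from the GRCm38 reference (the build mm10 of the lists). Each is 201 bases of the plus strand around the center of a peak. Distances are from the annotated start, and a minus sign marks a position before it. The letters searched on both strands were CACGTG (the E-box), TTCNNNNGAA (STAT6), GAGGAAGT (PU.1), and the NF-κB motif, in windows of 201 bases. The share of all 145573 merged sites of PU.1, p300, the HDACs, and p65 with each was 3.04%, 7.35%, 15.8%, and 5.28%. A match is a description of the letters and does not show that a protein bound them.

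The first pair lies beyond the 3' end of Myc. The site at +14456 bp had a peak in all 28 lists of PU.1, p300, the HDACs, and p65, and its capitals mark the 197 bases over which the centers of those 28 peaks were spread. None of the 4 motifs was found in it. The site at +17745 bp had its highest scores for PU.1, and its capitals mark a STAT6 match.
Myc +14456 bp, chr15:61999688-61999888: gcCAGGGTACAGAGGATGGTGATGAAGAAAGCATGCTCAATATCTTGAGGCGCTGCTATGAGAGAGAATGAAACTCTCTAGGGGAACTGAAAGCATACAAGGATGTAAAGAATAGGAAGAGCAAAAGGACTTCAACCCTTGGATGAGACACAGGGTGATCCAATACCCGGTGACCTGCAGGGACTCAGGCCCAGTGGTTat
Myc +17745 bp, chr15:62002986-62003186: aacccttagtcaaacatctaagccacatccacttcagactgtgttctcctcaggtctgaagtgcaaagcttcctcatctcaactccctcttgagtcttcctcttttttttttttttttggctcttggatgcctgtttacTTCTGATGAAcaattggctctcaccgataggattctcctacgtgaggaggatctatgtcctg

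The next 4 lie in a gene-poor region far before Max and had p300 peaks with IL-4 only (-94773 and -96593 bp) or p65 peaks with LPS only (-123202 and -124019 bp). Capitals mark a STAT6 match at -96593 and -124019 bp and an E-box at -123202 bp, and the window at -94773 bp held none of the 4 motifs. The annotation assigns them to Max as the nearest start in its gene set, although in the RefSeq genes the uncharacterized genes Gm35189 and Gm40446 are the neighbors. The -94773 and -96593 bp windows begin 1844 and 3664 bp from Gm35189, and the -123202 bp window lies 30273 bp from it.
Max -94773 bp, chr12:77056921-77057121: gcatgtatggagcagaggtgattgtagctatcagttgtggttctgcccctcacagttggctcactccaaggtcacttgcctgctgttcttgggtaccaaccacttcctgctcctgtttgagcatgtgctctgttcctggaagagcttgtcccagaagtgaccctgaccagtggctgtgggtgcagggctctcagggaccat
Max -96593 bp, chr12:77058741-77058941: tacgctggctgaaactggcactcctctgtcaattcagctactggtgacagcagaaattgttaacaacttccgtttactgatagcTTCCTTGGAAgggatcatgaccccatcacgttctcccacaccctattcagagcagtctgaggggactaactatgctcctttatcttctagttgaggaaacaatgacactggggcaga
Max -123202 bp, chr12:77085350-77085550: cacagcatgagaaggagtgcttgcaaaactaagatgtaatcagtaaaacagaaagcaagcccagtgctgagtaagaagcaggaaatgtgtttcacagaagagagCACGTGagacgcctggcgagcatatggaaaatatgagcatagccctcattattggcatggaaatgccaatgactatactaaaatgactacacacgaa
Max -124019 bp, chr12:77086167-77086367: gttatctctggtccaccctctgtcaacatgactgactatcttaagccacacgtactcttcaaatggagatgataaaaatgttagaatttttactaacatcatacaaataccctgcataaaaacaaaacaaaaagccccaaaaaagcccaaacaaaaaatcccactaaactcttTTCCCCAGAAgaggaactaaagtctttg

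The last group shows the most widely bound Mxi1 site, a p65 site within Mxi1, and a pair of sites and the promoter of Mnt that hold a motif. Capitals mark a PU.1 match before Mnt at -2319 bp, and an NF-κB match before Mxi1 and at -777 bp of Mnt. The intronic Mxi1 site at -1494 bp held no motif of the 4. Its distance is negative because the annotation measured it from a later Mxi1 start. The Mnt promoter sequence from RefSeq, the 250 bases before the start, holds the E-box (capitals) that the network's own proteins can bind. Among all 32851 promoters, 7.15% held it within 300 bases. The promoter table matched 4 of the 5 members, with 6 entries, and Myc was not among them.
Mxi1 -25867 bp, chr19:53284539-53284739: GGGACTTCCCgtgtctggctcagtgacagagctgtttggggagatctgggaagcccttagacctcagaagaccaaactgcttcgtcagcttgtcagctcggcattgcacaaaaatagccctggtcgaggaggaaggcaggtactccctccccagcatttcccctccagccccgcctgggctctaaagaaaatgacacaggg
Mxi1 -1494 bp, chr19:53327819-53328019: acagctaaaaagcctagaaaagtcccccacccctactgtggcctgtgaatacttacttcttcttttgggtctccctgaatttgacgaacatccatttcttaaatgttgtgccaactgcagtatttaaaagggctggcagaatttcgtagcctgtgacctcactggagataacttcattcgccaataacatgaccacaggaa
Mnt -2319 bp, chr11:74828505-74828705: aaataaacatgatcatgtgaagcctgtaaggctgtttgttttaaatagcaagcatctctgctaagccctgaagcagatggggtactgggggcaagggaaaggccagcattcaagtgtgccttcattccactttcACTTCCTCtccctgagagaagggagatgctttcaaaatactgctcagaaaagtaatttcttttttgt
Mnt -777 bp, chr11:74830047-74830247: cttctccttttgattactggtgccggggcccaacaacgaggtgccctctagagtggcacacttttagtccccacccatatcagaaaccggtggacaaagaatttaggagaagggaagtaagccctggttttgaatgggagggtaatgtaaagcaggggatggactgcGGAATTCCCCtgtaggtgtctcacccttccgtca
Mnt promoter, chr11:74830674-74830923, plus strand: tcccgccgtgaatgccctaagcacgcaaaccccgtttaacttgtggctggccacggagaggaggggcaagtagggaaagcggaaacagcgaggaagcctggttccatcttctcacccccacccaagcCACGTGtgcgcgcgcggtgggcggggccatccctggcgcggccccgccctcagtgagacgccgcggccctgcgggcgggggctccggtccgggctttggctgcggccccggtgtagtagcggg

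The values are peak scores. For all targets but H3K27Ac the score is a −log10 value, of either p or q as MACS2 gives it (the files do not say which), so a score of 10 is stronger evidence for a peak than a score of 5 and is not a read count. For H3K27Ac it is HOMER's normalized tag signal in regions of about 1 kb. A gene score is the sum of the scores of the peaks that the lists annotate to a gene and do not call intergenic, and a site score is the highest score of a peak at a site. For the tests, a missing peak received the lowest score of the antibody's lists, and each sample was centered on its median over genes or sites with a peak in every sample. A difference is called when its limma p adjusted by Benjamini-Hochberg over all genes or sites is at most 0.05. Differences are log2 of centered scores, treated minus control. Where a group had no peak, the size of a difference depends on the score filled in, so the scores themselves are given first and no fold is read from it. Such a group has no spread of its own beyond the centering. Its p-values, and whether a call holds without 1 library, therefore depend on the fill too.

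The lists hold no reads, so their depth is not known. Peak numbers stand in for it and ranged from 8440 in the second untreated HDAC3 list to 71027 in the second PU.1 list with IL-4. The RNAPII-pS5 lists held 14476 and 15349 peaks in ctrl/LPS and 17826 and 18207 in IL-4 PT/LPS, against 19279 to 22149 without LPS. The p65 lists held 26305 and 26820 in ctrl/LPS and 36738 and 38955 in IL-4 PT/LPS. Several facts of the lists bear on the members. For RNAPII-pS2 after 1 hr, all peak names in the 4 lists carry the treatment opposite to the label. The labels were kept, and those libraries are called by them without reading an effect of IL-4. In them the IL-4 target genes Cish and Socs1 scored lower in the libraries labelled IL-4, by -4.70 and -4.63 (adjusted p = 0.0983 and 0.106). The 4 PU.1 lists, untreated ones included, all carry IL-4 in their peak names, so their groups rest on the labels. The p300 library of untreated replicate 1 stood apart, with 44787 peaks against 66710 to 69360. The labels give HDAC3 and H3K27Ac 1 antibody number, whereas the study's list of reagents gives HDAC3 a number of its own. Centering removed a shift of 1.52 (log2) from the p65 gene scores of ctrl/LPS against ctrl/ctrl, 0.45 from IL-4 PT/LPS against ctrl/LPS, and 2.11 from IL-4 PT/LPS against IL-4 PT/ctrl, because most p65 scores rose with LPS. For p300, PU.1, HDAC3, and HDAC1 after IL-4 it removed 0.87, 0.36, 0.40, and -0.43. For RNAPII-pS5 it removed -0.34 from ctrl/LPS against ctrl/ctrl and 0.39 from IL-4 PT/LPS against ctrl/LPS, and for RNAPII-pS2 it removed 0.29 from IL-4 PT/LPS against IL-4 PT/ctrl and -0.16 from IL-4 PT/ctrl against ctrl/ctrl. Differences are relative to these shifts.

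Of 7 macrophage markers, 6 had an RNAPII-pS5 peak in all 12 lists and 7 had a PU.1 peak in all 4, with summed RNAPII-pS5 scores of 105 to 551. Of 4 T cell markers, Cd3e, Cd4, and Cd8a had neither, and Cd3d had both in every list (summed RNAPII-pS5 scores of 7.22 to 64.5). Of the B cell markers, Cd79a had neither and Ms4a1 had both in every list. None of 3 fibroblast markers had an RNAPII-pS5 peak, 2 of 3 erythroid and 2 of 4 neutrophil markers had none (Hba-a1 and Ly6g are named in no list), and the part of other cells in the results was not tested. Known target genes of the treatments were checked. After 1 hr of IL-4, H3K27Ac was higher at 5 of 5 listed IL-4 target genes, with 2.51 for Cish. After LPS, RNAPII-pS5 was higher at 3 of 5 listed LPS target genes, with 3.89 for Ptgs2. Il1b went the other way: RNAPII-pS2 scored 31.9 and 21.7 in ctrl/ctrl and 51.7 and 59.9 in IL-4 PT/ctrl and was absent from the 4 LPS lists (adjusted p = 0.0013 and 0.0014), and RNAPII-pS5 was also absent there. Its p65 score was 27.6 and 30.3 in ctrl/ctrl and 128 and 134 in ctrl/LPS. The study reports that IL-4 PT lowered RNAPII-pS2 and RNAPII-pS5 on the Il1b gene body, both without LPS and where LPS had induced them. The lists differ from that at Il1b, and the reason was not tested. A peak missing from a list thus need not mean that polymerase was absent.

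The members differed in where their peaks lay. Mxd1 had 1 intergenic peak of 114, whereas 136 of the 174 Myc peaks (78.2%) were intergenic, between -1823 and +22761 bp. Max had 162 intergenic peaks of 288 and reached out to -137819 bp. Mxi1 had 70 of 189, and Mnt 38 of 238. Because the gene score leaves intergenic peaks out, it covers most peaks of Mxd1 and Mnt and few of Myc.

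Myc carried 1 of the most widely bound sites of the set. At +14456 bp (chr15:61999408-62000198), 9336 bp past the end of Myc and 38089 bp before the noncoding gene Pvt1, all 28 lists of PU.1, p300, HDAC1, HDAC2, HDAC3, and p65 had a peak. It was the only such site among the 66 merged sites of the 5 genes (1.52%), and 1637 of 145582 sites in the genome (1.12%) were like it. A further 23 lists of RNAPII had a peak there, and no H3K27Ac list did. Sites with a peak for all 6 of these targets made up 8 of 66 (12.1%) for the members and 8.88% of all sites.

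The p300 score of the +14456 bp site was 123 and 231 without IL-4 and 190 and 190 with it, and the low value is that of the p300 library that stood apart. PU.1 scored 95.5 and 80.2 without and 149 and 120 with IL-4, so the groups as labelled did not overlap. HDAC3 scored 50.7 and 39.96 against 48.9 and 41.9, HDAC2 31.8 and 20.7 against 24.4 and 24.2, and HDAC1 23.0 and 13.9 against 13.7 and 27.7, with overlap in each. None of these differences was called. In the second experiment p65 scored 17.2 and 14.9 in ctrl/ctrl, 16.5 and 10.4 in IL-4 PT/ctrl, 40.6 and 50.2 in ctrl/LPS, and 55.7 and 63.8 in IL-4 PT/LPS. Every score with LPS lay above every score without it. Relative to the general rise of p65, the difference of ctrl/LPS against ctrl/ctrl was 0.45 (adjusted p = 0.22), and without centering it was 1.49 (adjusted p = 0.0085). RNAPII-pS2 scored 52.4 to 86.8 at this site in 7 of the 8 lists of that experiment and 98.4 in IL-4 PT/LPS replicate 1.

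**Figure D1:**
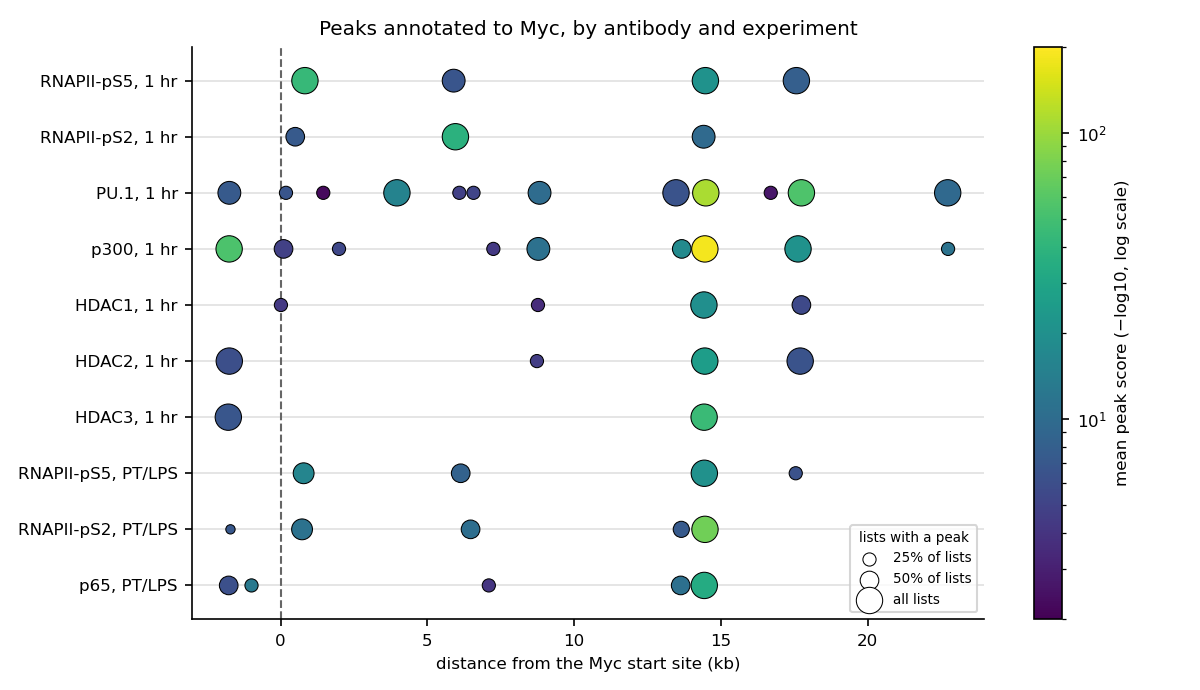
Sites annotated to Myc by distance from its start (x axis, kb) for each antibody but H3K27Ac and each experiment (rows); the color is the mean peak score (log scale) and the size of a point is the share of lists with a peak. The column at about +14 kb is filled in each row drawn, whereas the start itself has few factor peaks.

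The polymerase on the Myc gene body was separated from that distal site. After 1 hr of IL-4, the RNAPII-pS5 gene score of Myc was 55.0 and 33.0 in untreated cells and 62.9 and 61.8 with IL-4. Both values with IL-4 were above both without. The difference was 0.58 (SE 0.17, 95% interval 0.10 to 1.05), with an unadjusted p of 0.0286 from limma and an adjusted p of 0.316, so it was not called. The site at the end of the gene (+5898 bp) had no peak and 2.74 in untreated cells and 10.1 and 7.32 with IL-4. In the libraries labelled as RNAPII-pS2, Myc scored 11.1 and 67.7 for untreated and 19.3 and 22.7 for IL-4. PU.1 at +17745 bp scored 54.3 and 33.0 against 68.3 and 64.7, and p300 at -1751 bp scored 20.0 and 61.5 against 68.4 and 67.9. Neither was called. The Myc H3K27Ac peaks came to 1 intergenic region, in IL-4 replicate 2 only (73.2).

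In the experiment with 24 hr of IL-4, the Myc gene body had polymerase peaks with IL-4 that the control lists lacked. The untreated lists of the 1 hr experiment did hold RNAPII-pS5 peaks on Myc, so the absence belongs to the ctrl/ctrl lists, and the experiments were not compared with each other. The distal site, at +14438 bp for RNAPII-pS5, had a peak in all 8 lists (19.8 and 23.9 in ctrl/ctrl). Apart from intergenic peaks, RNAPII-pS5 had no Myc peak in either ctrl/ctrl list and scored 20.1 and 21.1 in IL-4 PT/ctrl. It was listed in 1 of the 2 ctrl/LPS lists at 4.21, and IL-4 PT/LPS scored 19.6 and 21.7. Each sample with IL-4 thus lay above each sample without it, with and without LPS. The order was IL-4 PT/ctrl and IL-4 PT/LPS, which overlapped, then ctrl/LPS and ctrl/ctrl, which both had lists without a peak. The fitted difference was 3.77 for IL-4 PT/ctrl against ctrl/ctrl (SE 0.50, adjusted p = 0.0108, limma) and 2.68 for IL-4 PT/LPS against ctrl/LPS (SE 0.50, adjusted p = 0.0275). With 1 library left out in turn, the first held in 5 of 8 cases, with adjusted p from 0.0181 to 0.0547 (lost without ctrl/ctrl replicate 1 or 2 or IL-4 PT/ctrl replicate 1). The second held in 1 of 8 cases, with adjusted p from 0.0447 to 0.107 (held without ctrl/LPS replicate 2 alone). Both calls were lost when intergenic peaks were counted, which adds the site at +14456 bp. Of the 5 members, Myc alone was called in either comparison, against 7.05% and 8.51% of all 10610 genes.

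By site, the RNAPII-pS5 peak in the first part of the gene (+787 bp, chr15:61985320-61986843) was at 20.1 and 21.1 in IL-4 PT/ctrl and absent in ctrl/ctrl (adjusted p = 0.0040). This call held without any 1 of the 8 libraries. Under LPS the same site scored 19.6 and 16.6 with IL-4 PT and was listed once without it, at 4.21 (adjusted p = 0.017, lost without either IL-4 PT/LPS replicate). The peak past the 3' end (+6138 bp) was found only with IL-4, at 10.4 and 12.9 without LPS and at 4.88 and 5.11 with LPS. It was called in both comparisons with and without IL-4 (adjusted p = 0.0022 and 0.0071) and was lower with LPS in pretreated cells, by -1.21 (adjusted p = 0.0095). The sign of the second of these comparisons, with a fitted value of 1.60, rests on how a missing peak is filled, since it became -0.40 with a floor 4 times as high and -0.20 with only the upper 50% of peaks.

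RNAPII-pS2 at Myc was likewise higher in value with IL-4 PT than without. Its gene score was listed once in ctrl/ctrl (6.17), was 14.0 and 11.8 in IL-4 PT/ctrl, absent in ctrl/LPS, and 12.0 and 17.9 in IL-4 PT/LPS. The difference of IL-4 PT/LPS against ctrl/LPS was 3.35 (SE 0.71, adjusted p = 0.0481). It held in 2 of 8 cases with a library left out, and its adjusted p ran from 0.0144 to 0.18 (lost without either replicate of IL-4 PT/ctrl, ctrl/LPS, or IL-4 PT/LPS). The site past the 3' end (+6474 bp) was the firmer of the 2, at 10.2 and 11.3 in IL-4 PT/ctrl and 10.04 and 10.3 in IL-4 PT/LPS with no peak in the 4 lists without IL-4. Its adjusted p was 0.00098 and 0.00092, and both calls held without any 1 library. Of the members, Myc alone was called for IL-4 PT/LPS against ctrl/LPS, where 6.73% of genes were, and none for IL-4 PT/ctrl against ctrl/ctrl, where 11.3% were.

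**Figure D2:**
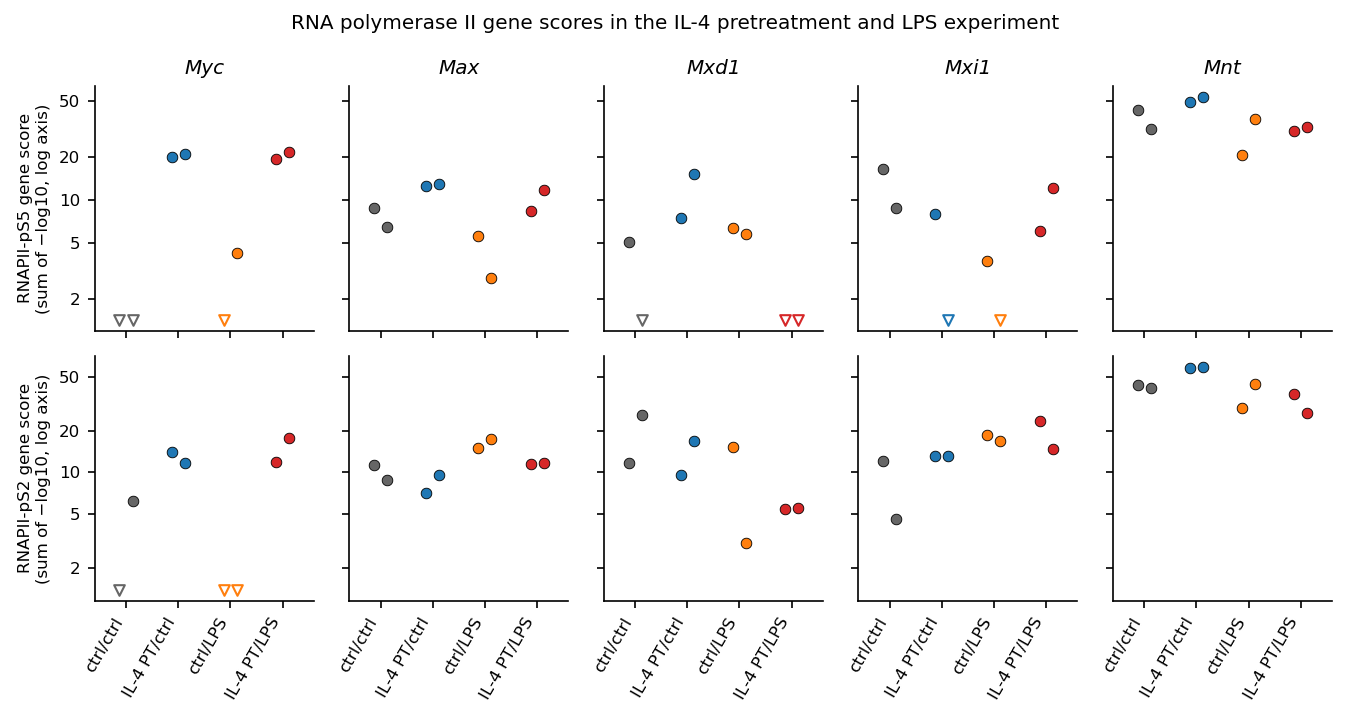
RNAPII-pS5 (top) and RNAPII-pS2 (bottom) gene scores (log axis, 1 point per sample) for the 5 genes in the 4 groups of the second experiment. Open triangles mark lists without a peak that is not intergenic. For Myc, all 4 samples with IL-4 PT sit above the samples without it for both antibodies, and for Mxd1 both IL-4 PT/LPS lists lack an RNAPII-pS5 peak.

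p65 near the Myc start appeared with LPS. At -1766 bp it was absent without LPS and scored 4.18 and 6.81 in ctrl/LPS and 8.85 and 4.75 in IL-4 PT/LPS. At +13633 bp, next to the widely bound site, it was again absent without LPS, and scored 6.68 and 10.2 in ctrl/LPS and 10.3 and 15.9 in IL-4 PT/LPS (adjusted p = 0.0083 and 0.0058 for the 2 comparisons with and without LPS). At -989 bp the only peaks were in IL-4 PT/LPS, at 21.3 and 4.36 (adjusted p = 0.0435 against ctrl/LPS, held in 2 of 8 cases with a library left out, and lost without either replicate of the other 3 groups).

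Max, the common partner of all the other members, was called for H3K27Ac after 1 hr of IL-4. Its gene score rose from 354 and 362 to 467 and 492 (0.41, SE 0.06, adjusted p = 0.0219), with no overlap. In the alternative that leaves out 1 of the 4 libraries the adjusted p ran from 0.0745 to 0.101, so the call was lost whichever of them was left out. The rise lay in 1 region, and by its highest peak alone Max had -0.21. At +600 bp (chr12:76961148-76962223) no untreated list had a region and the IL-4 lists scored 181 and 202 (adjusted p = 0.000125). The study called regions of a set size and minimum distance, so an unlisted region need not lack acetylation. The other regions within Max had lower values with IL-4, with 223 and 216 against 178 and 190 at +4604 bp and 102 and 112 against 82.4 and 79.1 at +19068 bp (-0.35, adjusted p = 0.045, lost whichever of the 4 libraries was left out). Far before the gene, the region at -130628 bp rose from 37.5 and 39.1 to 56.6 and 56.9 (0.62, adjusted p = 0.0073). This call and that at +600 bp held without any 1 library.

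p300 gained a pair of sites in the same far region. At -94773 bp (chr12:77056707-77057317) neither untreated list had a p300 peak, and the IL-4 lists scored 134 and 160. These were the highest p300 scores of any Max site. The adjusted p was 0.0472, and it was 0.0417 without the untreated library that stood apart. It was 0.0554 without untreated replicate 2, 0.335 without IL-4 replicate 1, and 0.303 without IL-4 replicate 2. At -96593 bp, a site named after its values were seen, the scores were 60.2 and 73.3 with IL-4 and no peak without (adjusted p = 0.0501, not called). Of the 38 p300 sites of the members that were tested, the site at -94773 bp was the only one called, against 2.46% of all 67229 sites.

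The same pair was found in the lists labelled HDAC3, which scored 19.5 and 12.5 at -94769 bp and 7.62 and 10.4 at -96576 bp with IL-4 and had no peak without. HDAC1, HDAC2, and PU.1 had a peak at the first of these in 1 IL-4 list each (5.72, 4.43, and 4.34) and in no untreated list. At -130434 bp, p300 scored 14.3 and 64.97 without and 101 and 115 with IL-4 (adjusted p = 0.145). The neighboring site at -97928 bp was bound in both conditions, with p300 at 20.4 and 104 against 57.4 and 58.5 and overlapping groups.

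**Figure D3:**
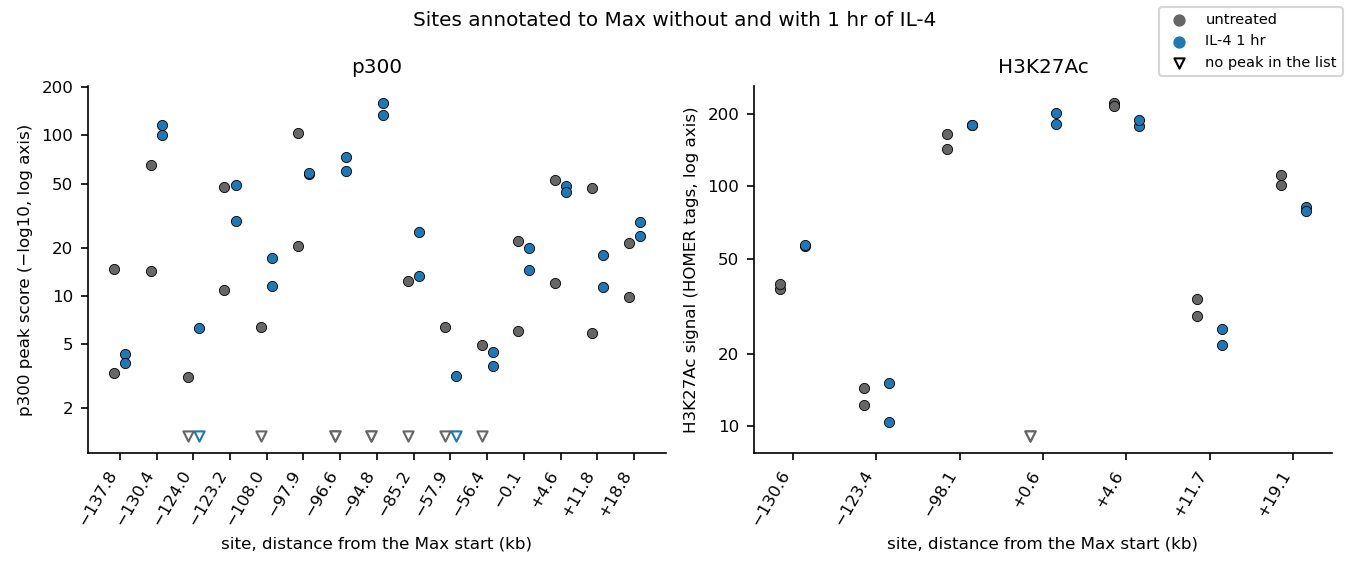
p300 peak scores (left) and H3K27Ac signal (right), both on log axes, at the sites annotated to Max in untreated cells (gray) and after 1 hr of IL-4 (blue), by distance from the Max start; open triangles mark lists without a peak. The p300 sites at -94773 and -96593 bp and the H3K27Ac region at +0.6 kb have values with IL-4 only.

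RNAPII at Max did not differ in a called way after 1 hr of IL-4. The RNAPII-pS5 gene score was 64.3 and 41.2 without and 53.9 and 63.7 with IL-4 (0.21, interval -0.34 to 0.76). In the second experiment it was 8.80 and 6.46 in ctrl/ctrl, 12.6 and 12.9 in IL-4 PT/ctrl, 5.61 and 2.82 in ctrl/LPS, and 8.35 and 11.8 in IL-4 PT/LPS. No difference of this sum was called, and its sites did not move together. Near the start, at +418 bp, RNAPII-pS5 had no peak in ctrl/ctrl and scored 8.66 and 9.21 in IL-4 PT/ctrl. It was listed once in ctrl/LPS (5.61) and scored 8.35 and 11.8 in IL-4 PT/LPS. IL-4 PT without LPS was called there (2.62, adjusted p = 0.0458, limma), which held in 2 of 8 cases with a library left out. At +4584 bp, within the gene, RNAPII-pS5 scored 8.80 and 6.46 in ctrl/ctrl and 3.93 and 3.71 in IL-4 PT/ctrl and had no peak in the 4 LPS lists (adjusted p = 0.0016 and 0.0070 for LPS without and with IL-4 PT). RNAPII-pS2 at +362 bp had 1 peak in the 4 lists without LPS (3.04) and scored 5.41, 6.10, 7.45, and 6.69 in the 4 with it (adjusted p = 0.0099 for ctrl/LPS against ctrl/ctrl, which became 0.0503 without ctrl/ctrl replicate 1 and 0.0505 without ctrl/LPS replicate 2).

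In the far Max region, the response to LPS differed with and without IL-4 PT. RNAPII-pS2 at -98264 bp (chr12:77059900-77060989) scored 18.9 and 17.2 in ctrl/ctrl, 13.4 and 16.7 in IL-4 PT/ctrl, 4.56 and 3.45 in ctrl/LPS, and 14.7 and 20.3 in IL-4 PT/LPS. The ctrl/LPS samples were apart from the other 6. With LPS and no IL-4 PT the score fell by 2.38 on the log2 scale (adjusted p = 0.0014), IL-4 PT/LPS exceeded ctrl/LPS by 2.18 (adjusted p = 0.0031), and the interaction was 2.40 (SE 0.38, adjusted p = 0.01002). All lists held a peak here, so no score was filled in, and each of these calls held without any 1 library. p65 at the neighboring -98027 bp was present in all 8 lists, at 3.39 to 6.36 in the first 3 groups and at 15.3 and 19.1 in IL-4 PT/LPS (1.33 against ctrl/LPS, adjusted p = 0.043). This call held in 2 of 8 cases with a library left out, without either IL-4 PT/ctrl replicate, and its adjusted p reached 0.159.

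At -123202 bp (chr12:77085196-77085685), p65 had no peak in the 4 lists without LPS, scored 20.9 and 20.5 in ctrl/LPS, and 38.6 and 51.2 in IL-4 PT/LPS. Both LPS groups were called against their controls (adjusted p = 0.00041 and 0.00029), and IL-4 PT/LPS was above ctrl/LPS by 0.84 (adjusted p = 0.023, or 0.0598 without either ctrl/ctrl replicate and 0.0517 without ctrl/LPS replicate 2). RNAPII-pS2 at -123269 bp had 1 peak without LPS (8.66) and scored 24.9 and 18.7 in ctrl/LPS and 37.1 and 32.4 in IL-4 PT/LPS. Its calls for LPS (adjusted p = 0.018 and 0.036) were not stable. The first was lost whichever of the 4 libraries compared was left out, and the second whichever library of ctrl/ctrl, ctrl/LPS, or IL-4 PT/LPS was left out. At -124019 bp p65 was again absent without LPS, at 10.97 and 7.82 in ctrl/LPS, and at 33.3 and 35.3 in IL-4 PT/LPS. IL-4 PT/LPS exceeded ctrl/LPS there by 1.62 (adjusted p = 0.0031), which held without any 1 library. Over the genome, 9645 p65 sites were called higher in that comparison and 2123 lower, with a median difference of 0.39. RNAPII-pS2 at -123947 bp was listed in IL-4 PT/LPS alone, at 7.40 and 12.7.

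Mxi1 had lower H3K27Ac and RNAPII-pS5 gene scores after 1 hr of IL-4, of which only the H3K27Ac difference was called. Its H3K27Ac gene score fell from 209 and 241 to 166 and 158 (-0.48, SE 0.10, adjusted p = 0.0473), without overlap, and the call was lost whichever of the 4 libraries was left out (adjusted p from 0.0703 to 0.163). The region at +1009 bp went from 156 and 173 to 110 and 110 (-0.52, adjusted p = 0.017, which rose to 0.0611, 0.0709, and 0.0738 without untreated replicate 2, IL-4 replicate 1, and IL-4 replicate 2). The region at -25845 bp went from 53.7 and 55.6 to 37.7 and 40.3 (-0.43, adjusted p = 0.018, lost whichever library was left out). Mxi1 also had the largest RNAPII-pS5 difference of the 5 genes, with gene scores of 67.8 and 45.2 without and 25.1 and 17.9 with IL-4. The difference was -1.36 (SE 0.21, 95% interval -1.94 to -0.77), with an unadjusted p of 0.0033 and an adjusted p of 0.128, so it was not called. Of its 10 RNAPII-pS5 sites, the site at +832 bp went from 12.4 and 8.18 to 4.79 and 3.52 and that at -25785 bp from 10.6 and 7.28 to 3.14 and 3.66. HDAC2 at +3557 and -3626 bp had peaks in both untreated lists (3.01 and 9.34, 4.92 and 4.83) and in neither IL-4 list, and the reverse at -6909 bp (4.95 and 9.92 with IL-4). The gene differences of HDAC1 and HDAC3 were 0.27 and 0.16, and neither these nor the HDAC2 sites were called.

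Counted over the members after 1 hr of IL-4, H3K27Ac was called at 2 of the 4 genes tested (1 higher, 1 lower) and at 5 of 15 sites, against 26.3% of 11362 genes and 40.3% of 28929 sites. The site share lay below that background, and 4 genes are too few to read a share. RNAPII-pS5 was called at 0 of 5 genes and 0 of 24 sites, against 0.861% and 2.97%, and 2 genes and 3 sites had an unadjusted limma p under 0.05. Over all genes and sites, 13.0% and 20.0% had such a p. For p300 no gene in the genome was called (0%, with 3010 of 13593 under an unadjusted p of 0.05). For PU.1, HDAC1, HDAC2, HDAC3, and the libraries labelled as RNAPII-pS2, 0% of genes and 0% of sites were called in the genome by limma. Of their member genes 1 had an unadjusted p under 0.05, Mxi1 with HDAC2 (-2.35, adjusted p = 0.37). Over all genes, an unadjusted p under 0.05 was seen at 667 of 4090 for HDAC3, 821 of 8243 for HDAC2, 921 of 10679 for HDAC1, 1139 of 11504 for PU.1, and 1282 of 8687 for RNAPII-pS2. For PU.1 the 95% intervals of the 5 genes reached from -1.91 (Mxi1) to 2.05 (Myc), which is wide enough for sizable differences in either direction.

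**Figure D4:**
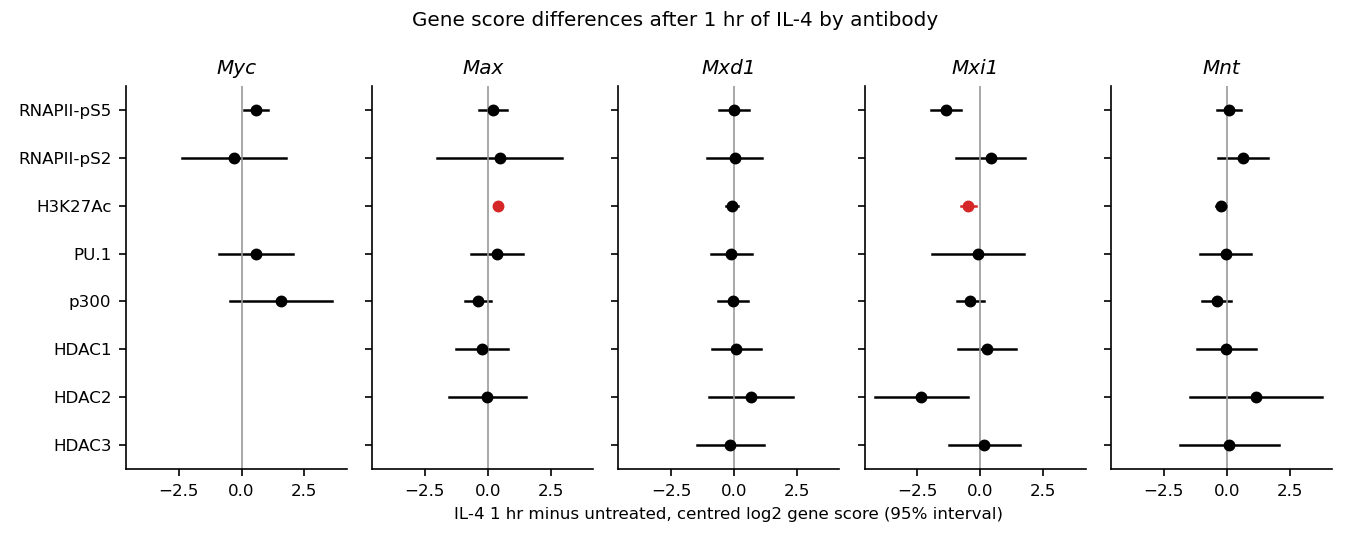
Log2 difference of the centered gene score, IL-4 1 hr minus untreated, with its 95% interval for each gene (panels) and antibody (rows); red points are called, and a missing point means too few lists with a peak. Red are Max H3K27Ac (0.41) and Mxi1 H3K27Ac (-0.48), and the RNAPII-pS5 interval of Mxi1 lies below 0.

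With LPS, p65 gained sites at Mxi1. Its p65 gene score was absent in all 4 lists without LPS, 13.5 and 12.7 in ctrl/LPS, and 34.3 and 41.6 in IL-4 PT/LPS. It was called against the controls without and with IL-4 PT (adjusted p = 0.0045 and 0.0014), and both calls held without any 1 library. With a floor 4 times as high the first turned to -0.20, since every control list lacked a peak that was not intergenic. IL-4 PT/LPS exceeded ctrl/LPS by 1.08 (SE 0.22, adjusted p = 0.0304). That call held in 5 of 8 cases with a library left out (0.0605 without either ctrl/ctrl replicate and 0.0627 without ctrl/LPS replicate 2). Most of the score lay in the intronic site at -1494 bp (chr19:53327613-53328155), at 13.5 and 6.65 in ctrl/LPS and 24.9 and 24.6 in IL-4 PT/LPS. RNAPII-pS5 at -1305 bp was found with LPS only, once in ctrl/LPS (3.75) and at 6.05 and 6.93 in IL-4 PT/LPS. RNAPII-pS2 at -1452 bp was likewise found with LPS only, at 3.09 and 5.59 and at 11.2 and 4.36. The site at -25845 bp, by contrast, held p65 in 7 of the 8 lists at 4.82 to 11.4, also without LPS. Other polymerase sites of Mxi1 had peaks in ctrl/ctrl only. RNAPII-pS5 at +1135 bp scored 4.42 and 4.01 there, and RNAPII-pS2 at -6876 bp 6.25 and 3.36. Both were called lower with LPS alone (adjusted p = 0.0045 and 0.0054, limma) and with IL-4 PT alone (0.0044 and 0.013). The sign of each turned with a floor 4 times as high. No difference of the polymerase gene scores of Mxi1 was called. RNAPII-pS5 scored 16.5 and 8.86 in ctrl/ctrl, 8.00 and no peak in IL-4 PT/ctrl, 3.75 and no peak in ctrl/LPS, and 6.05 and 12.2 in IL-4 PT/LPS.

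At its start, Mxd1 had an RNAPII-pS5 peak in all 4 lists of the 1 hr experiment, untreated ones included (-622 bp, mean score 38.7). The experiments were not compared with each other. In the second experiment, only the IL-4 PT/ctrl lists had an RNAPII-pS5 peak there. The site at -463 bp (chr6:86669404-86669967) scored 7.44 and 8.10 in IL-4 PT/ctrl and had no peak in the other 6 lists. It was called for IL-4 PT without LPS (adjusted p = 0.0022), for LPS after IL-4 PT (adjusted p = 0.0011), and for the interaction (-2.60, SE 0.29, adjusted p = 0.0098), and each call held without any 1 library. The gene score of RNAPII-pS5 was 5.08 and no peak in ctrl/ctrl, 7.44 and 15.2 in IL-4 PT/ctrl, 6.31 and 5.75 in ctrl/LPS, and absent from both IL-4 PT/LPS lists. IL-4 PT/LPS was below IL-4 PT/ctrl (-2.87, SE 0.62, adjusted p = 0.0239), which held in 5 of 8 cases (0.116 without IL-4 PT/ctrl replicate 2, 0.0923 and 0.0924 without IL-4 PT/LPS replicate 1 and 2). RNAPII-pS2 at Mxd1 was 11.7 and 26.5, 9.52 and 17.0, 15.3 and 3.03, and 5.39 and 5.54 in the order of the groups above, and no difference of it was called. At its start (-466 bp) RNAPII-pS2 scored 3.55 and 3.85 in ctrl/ctrl, was listed once in IL-4 PT/ctrl at 13.2, and was absent from the 4 LPS lists. Inside the gene, RNAPII-pS2 at +8487 bp scored 8.16 and 8.19 in ctrl/ctrl and was absent with LPS (adjusted p = 0.016, lost whichever of the 4 libraries compared was left out). Other sites inside the gene had peaks in ctrl/LPS only. They were RNAPII-pS5 at +1605 bp (2.74 and 5.75) and RNAPII-pS2 at +1363 bp (6.53 and 3.03). Both were called higher with LPS alone (adjusted p = 0.0176 and 0.0247, limma) and lower in IL-4 PT/LPS than in ctrl/LPS (0.0318 and 0.0302). Each of these calls was lost without at least 1 library, and its sign turned with a floor 4 times as high. p65 at its start (-355 bp) was absent without LPS, listed once in ctrl/LPS (3.86), and at 5.05 and 9.47 in IL-4 PT/LPS.

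After 1 hr of IL-4, no gene score or site of Mxd1 was called. Its H3K27Ac regions were at 225 and 227 against 233 and 218 at +8669 bp and at 162 and 161 against 146 and 143 at +3029 bp, and the gene difference was -0.07 (95% interval -0.31 to 0.17). The RNAPII-pS5 gene score was 72.1 and 46.6 against 67.5 and 47.8. Around +8448 bp HDAC1 scored 8.29 and 7.22 against 13.6 and 14.5, and at +14434 bp it scored 8.61 and 10.9 against 2.78 and 4.15. Neither site overlapped between the groups, their directions were opposite, and neither was called.

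Mnt had the most peaks at and within the gene. RNAPII-pS5 scored 149 and 97.5 in untreated cells and 120 and 132 after 1 hr of IL-4, and the H3K27Ac region at +8291 bp 579 and 533 against 475 and 490 (-0.22, adjusted p = 0.0988). PU.1 at -2319 bp scored 136 and 63.1 against 98.0 and 102. HDAC1 at -714 bp, in the promoter, scored 17.5 and 20.0 against 15.3 and 20.6, and was present in all 4 lists. In the second experiment the RNAPII-pS5 gene score was 43.3 and 31.7 in ctrl/ctrl, 48.9 and 53.1 in IL-4 PT/ctrl, 20.9 and 37.4 in ctrl/LPS, and 30.7 and 32.7 in IL-4 PT/LPS. RNAPII-pS2 had 43.8 and 41.4, 57.8 and 59.1, 29.6 and 44.8, and 37.6 and 27.4. In both, the IL-4 PT/ctrl samples held the highest values, and no difference was called.

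At the end of Mnt, several differences were called. RNAPII-pS2 at +15167 bp (chr11:74845589-74846650), the transcription termination site, scored 6.00 and 4.49 in ctrl/ctrl and 11.5 and 12.5 in IL-4 PT/ctrl and was absent from all 4 LPS lists. RNAPII-pS5 at +15259 bp scored 8.39 and 5.14 and 9.54 and 9.67 in the same groups. It was also absent with LPS, where the RNAPII-pS5 lists held fewer peaks. LPS was called for both without IL-4 PT (adjusted p = 0.0012 and 0.0035) and with it (0.00054 and 0.0015). IL-4 PT/ctrl was above ctrl/ctrl for RNAPII-pS2 by 1.26 (adjusted p = 0.011). All of these calls held without any 1 library. At +920 bp RNAPII-pS5 was lower in IL-4 PT/LPS (7.70 and 6.88) than in IL-4 PT/ctrl (19.7 and 14.7), by -1.22 (adjusted p = 0.031), a call lost without IL-4 PT/ctrl replicate 1 (0.11) or IL-4 PT/LPS replicate 1 (0.0824) or 2 (0.111).

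p65 rose at Mnt with LPS. Its gene score was 5.63 and 6.45 in ctrl/ctrl, 10.2 and 8.34 in IL-4 PT/ctrl, 38.3 and 42.6 in ctrl/LPS, and 36.7 and 47.2 in IL-4 PT/LPS, with every LPS value above every other. LPS was called without IL-4 PT (1.22, SE 0.24, adjusted p = 0.0142, or 0.0624 without ctrl/ctrl replicate 1). With intergenic peaks counted, which adds a site at -2322 bp that scored 16.4 and 4.32 in ctrl/ctrl, the value turned to -0.14. After IL-4 PT the difference relative to the general rise was 0.07 (adjusted p = 0.859), and without centering 2.18 (adjusted p = 0.00084). At +7404 bp the peak was absent without LPS and scored 9.68 and 6.10 in ctrl/LPS and 14.6 and 16.0 in IL-4 PT/LPS. At -777 bp, the site with the NF-κB match, it scored 8.73 and 11.3 in ctrl/LPS and 6.52 and 8.52 in IL-4 PT/LPS and was listed once without LPS (3.66). Its call (adjusted p = 0.022) was lost without either replicate of ctrl/ctrl or ctrl/LPS. At +8056 bp p65 was present in all 8 lists, at 5.63 to 8.34 without LPS, 15.3 and 21.0 in ctrl/LPS, and 5.53 and 14.4 in IL-4 PT/LPS.

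**Figure D5:**
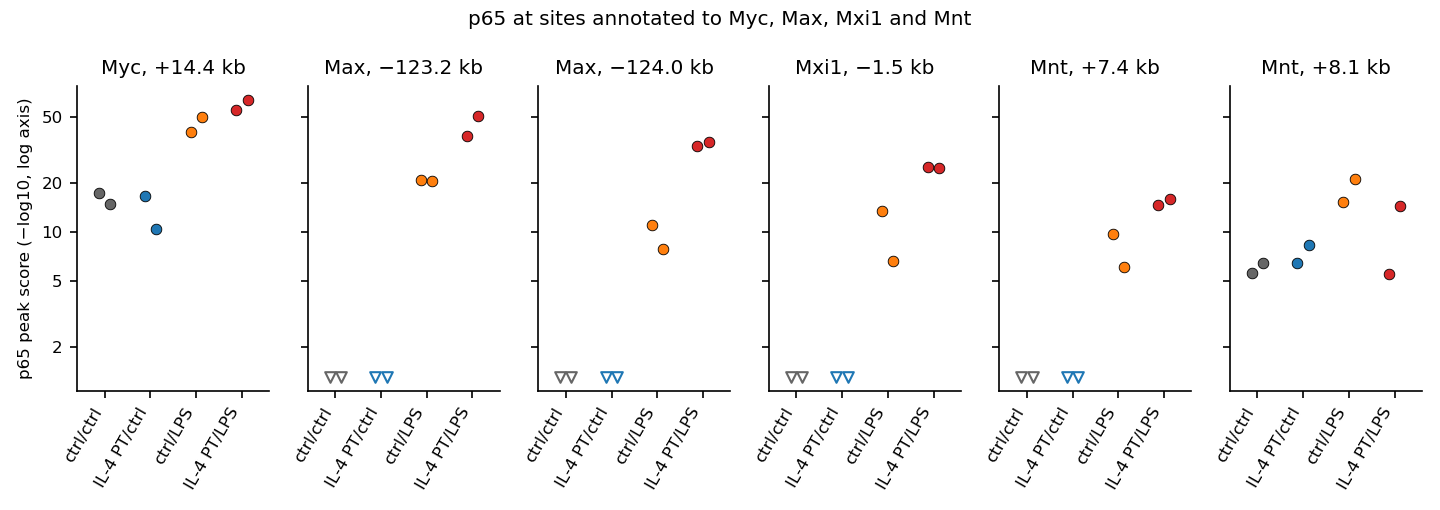
p65 peak scores (log axis, 1 point per sample) at the 6 sites of the members with the highest mean score over the 4 lists with LPS in the 4 groups of the second experiment; open triangles mark lists without a peak. The Max, Mxi1, and Mnt +7.4 kb sites have points only with LPS, whereas the Myc +14.4 kb and Mnt +8.1 kb sites have points in all groups.

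Of the 27 p65 sites of the members that were tested, 1 held the NF-κB motif, at -777 bp of Mnt, 4 held the E-box, 5 the PU.1 motif, and 2 the STAT6 motif. Among all 51410 merged p65 sites, 13.2% held the NF-κB motif, 3.79% the E-box, 7.85% the PU.1 motif, and 8.31% the STAT6 motif. Windows were 201 bases, and no match means only that these letters were not in that window. The NF-κB match printed above for Mxi1 at -25867 bp lies within the p65 site at -25845 bp but just outside the window searched for it.

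Counted over the members, p65 was called for ctrl/LPS against ctrl/ctrl at 2 of 4 genes tested and 9 of 27 sites, against 32.7% of 9925 genes and 46.7% of 37564 sites. Of those 9 sites, 6 were higher and 3 lower, and 2 of the lower had no peak in either group and are not read. The remaining lower site was within Max, at +4417 bp. It scored 3.44 and 6.04 in ctrl/ctrl and 9.96 and 4.49 in IL-4 PT/ctrl, and with LPS it was listed only in IL-4 PT/LPS replicate 2 (5.38). LPS was called there without and with IL-4 PT (-2.84 in both, adjusted p = 0.0239 and 0.0268, limma). These calls held in 4 and 5 of 8 cases with a library left out. For IL-4 PT/LPS against ctrl/LPS, p65 was called at 1 gene and 8 sites (13.8% and 31.3%), all higher. Of the 11768 sites called there over the genome, 9645 were higher too. For IL-4 PT/LPS against IL-4 PT/ctrl, p65 was called at 1 gene and 7 sites (26.3% and 40.7%). IL-4 PT alone moved no p65 gene or site of the members (4.46% and 4.22%, 2 genes and 0 sites at an unadjusted limma p under 0.05). Over all genes and sites, 13.7% and 10.1% had such a p. The interaction was called at 0 genes and 4 sites (7.49% and 23.2%). The site shares lie below those of all sites, and the gene shares rest on 4 genes.

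For RNAPII-pS5, LPS without IL-4 PT was called at 0 of 5 genes and 5 of 18 sites (24.1% and 29.8%). Over all genes, 749 were called higher there and 1808 lower. IL-4 PT without LPS was called at 6 sites (16.7%), and IL-4 PT under LPS at 3 (13.9%). LPS after IL-4 PT was called at 1 gene, Mxd1, and 6 sites (19.3% and 28.8%), and the interaction at 0 genes and 3 sites (4.04% and 17.1%). For RNAPII-pS2, LPS was called at 0 of 5 genes and 7 of 26 sites (22.1% and 33.3%), and IL-4 PT at 3 sites (21.6%). IL-4 PT under LPS was called at 5 sites (17.4%), LPS after IL-4 PT at 0 genes and 7 sites (17.3% and 30.3%), and the interaction at 0 genes and 4 sites (5.15% and 19.7%). Of the comparisons with 0 genes called, an unadjusted limma p under 0.05 was seen at 2 genes for the RNAPII-pS5 interaction and at 1 for each of IL-4 PT alone and LPS after IL-4 PT with RNAPII-pS2. The shares over all genes were 21.7%, 25.7%, and 30.8%, in that order. Contrasts of the second experiment share samples, so their counts are not independent.

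In all, 72 differences of member sites between 2 groups were called. Of these, 14 had a peak in both lists of both groups and 52 had peaks in both lists of 1 group and in none of the other. Most called differences of the members are thus the presence or absence of a peak in the lists, which need not be that of the protein.

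Other genes of the network were followed as a list of 15, which includes Mxd3, Mxd4, Mga, Mlx, and the Sin3 corepressor genes. After 1 hr of IL-4, H3K27Ac was higher at 2 of 10 tested and lower at none, with a median of 0.14 against 0.00 for all genes, of which 26.3% were called. Mxd4, a further Max partner that opposes Myc, rose from 104 and 99.0 to 272 and 266 (1.39, adjusted p = 0.0021), and Pvt1, the noncoding gene next to Myc, from 389 and 364 to 603 and 584 (0.64, adjusted p = 0.0111). In the second experiment RNAPII-pS5 at Mxd4 scored 5.24 and 4.08 in ctrl/ctrl and 6.14 and 9.40 in IL-4 PT/ctrl and was absent with LPS (adjusted p = 0.0295 and 0.0053). RNAPII-pS2 at Mxd4 was called lower with IL-4 PT, at 14.2 and 8.85 in ctrl/ctrl against no peak and 2.18 in IL-4 PT/ctrl (adjusted p = 0.0131) and at 4.6 and 7.44 in ctrl/LPS against no peak in IL-4 PT/LPS (adjusted p = 0.0324). With LPS alone RNAPII-pS5 was lower at 2 of 12 genes, Fbxw7 (a ubiquitin ligase component that degrades Myc) and Mxd4, against 24.1% of all genes called, with a median of -0.75 against -0.40. RNAPII-pS5 at Trrap, a coactivator of Myc, scored 23.1 and 16.5 in IL-4 PT/ctrl and 7.30 and 8.00 in IL-4 PT/LPS (-1.34, adjusted p = 0.0364), and with Mxd4 made 2 of 12 called there against 19.3% of all genes. RNAPII-pS2 at Sin3a fell with LPS from 18.1 and 21.9 to 5.67 and 6.94 (-1.76, adjusted p = 0.0087), and Mlx, at 6.31 and 5.90 in ctrl/ctrl, was absent (adjusted p = 0.0405), which made 2 of 12 against 22.1%. p65 at Sin3b was found in IL-4 PT/LPS alone, at 14.0 and 11.2 (adjusted p = 0.0024 against ctrl/LPS), 1 of 9 against 13.8%. Of the 9 genes tested for p65, no other had a call with a peak in both lists of a group. For PU.1, p300, and the HDACs after 1 hr of IL-4 none of the list was called, but no gene in the genome was either, so nothing about the list is read from it.

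A list of 24 textbook target genes of Myc was followed in the same way. After 1 hr of IL-4, H3K27Ac was higher at 4 of 19 tested (Srm, Nop56, Gnl3, and Npm1) and lower at 1 (Nme1), with a median of 0.17 against 0.00. The 5 of 19 called stand against 26.3% of all genes. Srm, an enzyme of polyamine synthesis, went from 42.1 and 35.9 to 67.9 and 60.4 (0.71, adjusted p = 0.0292). Nop56, a component of ribosome assembly, went from 175 and 175 to 244 and 235 (0.44, adjusted p = 0.0167), and Nme1 from 183 and 198 to 101 and 107 (-0.88, adjusted p = 0.0093). RNAPII-pS5 was called at none of 21, with a median of 0.25 against 0.00. With LPS alone, RNAPII-pS5 was higher at 1 of 15 and lower at 4, with a median of 0.10 against -0.40 and 24.1% of all genes called. Cdk4, a cell cycle kinase, had no peak in ctrl/ctrl and scored 10.8 and 8.93 in ctrl/LPS (adjusted p = 0.0031), and its RNAPII-pS2 score was 32.0 and 35.8 in ctrl/LPS and absent in ctrl/ctrl (adjusted p = 0.0013). Mybbp1a, a nucleolar protein, went from 23.2 and 21.1 to no peak and 6.12 for RNAPII-pS5 (adjusted p = 0.0343). For RNAPII-pS2 it went from 13.1 and 17.6 to 3.97 and 5.53 with LPS, and IL-4 PT/LPS scored 18.8 and 35.7 (2.43 against ctrl/LPS, adjusted p = 0.0278). Ccnd2, cyclin D2, scored 10.3 and 9.51 in ctrl/ctrl for RNAPII-pS5 and was absent in IL-4 PT/ctrl (adjusted p = 0.0106). With IL-4 PT alone that was the 1 call among the 15 targets tested, with a median of 0.09 against -0.03 for all genes, of which 7.05% were called. For p65 none of the 14 tested was called with LPS alone, against 32.7% of all genes. None was called for PU.1, p300, or the HDACs, but for these no gene in the genome was called, so nothing about the targets is read from it.

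Across the 8 RNAPII-pS5 samples of the second experiment, the 3 genes with the pattern most like Myc among 3597 genes with a peak in all 8 were Alyref2 (r = 0.988), 5830415F09Rik (0.968), and Lgals3 (0.965). For Mxd1 they were Mrpl33 (0.949), Gsg1 (0.919), and Fnbp1 (0.906). These are descriptions over 8 samples that share 4 groups of 2. Apart from intergenic peaks, Myc and Mxd1 lacked a peak in 3 of the 8 lists each, which had the filled-in score.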

How the data were processed

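ChIP-seq peak lists of 56 samples were used, 1 per sample, in 28 groups of 2 defined by GEO's labels. Per the paper's methods and the submitters' processing notes, the authors aligned reads to mm10 (BWA 0.7.10, SAMtools 0.1.19), called peaks per sample with MACS2 2.0.10 (H3K27Ac with HOMER), and annotated them with HOMER 4.2. The deposited score of the MACS2 lists is a −log10 p- or q-value (which is not stated), and the deposited H3K27Ac score is HOMER's normalized tag signal. No input control is given in the sources used here. The lists hold no reads, so no counting intervals could be given, and a −log10 score also grows with depth.

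Gene scores sum the non-intergenic peaks of a gene, and site scores take the highest peak on sites merged over an antibody's lists where peaks overlap by at least 1 bp. Missing peaks were set to the lowest score of the antibody's lists (1.30 to 1.76, H3K27Ac 9.1), values were log2-transformed, and samples were centered on the median of features with a peak in all samples. Features with a peak in at least 2 samples were fitted with limma 3.58.1 (R 4.3.3), all groups of an antibody and experiment in 1 fit, with Benjamini-Hochberg adjustment over all features. Other steps used Python 3.11.15 with pandas 2.3.3, NumPy 2.4.6, and Matplotlib 3.10.9. The limma step was tested on simulated data.

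The members and lists were chosen with earlier results of these data known. Named are the 5 genes, their promoter and most widely bound distal sites, up to 3 called sites per gene and comparison, and up to 2 genes per list and direction. Further sites (p65 before Max in IL-4 PT/LPS against ctrl/LPS, and uncalled sites) were named after their values were seen. A site sequence and a marker gene are not reported here. Some genes have older symbols in the lists (Mycl1, Sfpi1, Emr1). Alternatives were other peak choices, floors, centering, ranks, a replicate block, and leaving out each library. Filling missing peaks after centering was added after the data were seen.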

Additional observations from a re-analysis of the deposited data

Results flagged for a closer look

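In 11 cases the effect of LPS differed with and without IL-4 PT by the interaction term of limma, all at single sites and none in a gene score. At 4 of them in the region far before Max, 3 with p65 and 1 with RNAPII-pS2, the peaks were in IL-4 PT/LPS lists only or were highest there. The p65 values were 2.29 (SE 0.24, adjusted p = 0.0030) at -98849 bp, 1.42 (SE 0.31, adjusted p = 0.0260) at -124019 bp, and 1.53 (SE 0.40, adjusted p = 0.0460) at -131222 bp. The RNAPII-pS2 value at -123947 bp was 2.81 (SE 0.45, adjusted p = 0.0099). At -98264 bp RNAPII-pS2 had 2.40 (SE 0.38, adjusted p = 0.01002), and this is the only one of the 11 with a peak in all 8 lists.

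The others were p65 at +2936 bp of Mxi1 with 1.94 (SE 0.52, adjusted p = 0.0483), RNAPII-pS5 at +1135 bp of Mxi1 with 1.37 (SE 0.29, adjusted p = 0.0268), and RNAPII-pS2 at -6876 bp of Mxi1 with 1.73 (SE 0.45, adjusted p = 0.0447). Values were negative for RNAPII-pS5 at +6138 bp of Myc, at -1.39 (SE 0.31, adjusted p = 0.0325), for RNAPII-pS5 at -463 bp of Mxd1, at -2.60 (SE 0.29, adjusted p = 0.0098), and for RNAPII-pS2 at +15167 bp of Mnt, at -1.20 (SE 0.32, adjusted p = 0.0499). Of the 11, the calls at -98849, -98264, and -123947 bp of Max and at -463 bp of Mxd1 held without any 1 library. The others were lost without at least 1, and the Mnt call whichever of the 8 was left out. In all but 1 of the 11, missing peaks entered at the filled-in score.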

How the results depend on the processing

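Numbers of member genes called are given as reported and then under the alternative. IL-4 PT under LPS is IL-4 PT/LPS against ctrl/LPS, and LPS after IL-4 PT is IL-4 PT/LPS against IL-4 PT/ctrl. At an unadjusted p of 0.05, RNAPII-pS5 went from 0 to 2 (IL-4 1 hr), 1 to 2 (IL-4 PT, and IL-4 PT under LPS), and 0 to 2 (interaction), HDAC2 0 to 1, RNAPII-pS2 0 to 1 (IL-4 PT, and LPS after IL-4 PT), and p65 0 to 2 (IL-4 PT, interaction) and 1 to 2 (LPS after IL-4 PT). Replicates of different groups share only a number (correlations of deviations from -0.0323 to 0.0777 over 26 pairs of groups). With the replicate block, H3K27Ac went from 2 to 0, RNAPII-pS2 and p65 from 1 to 0 (IL-4 PT under LPS), and p300 sites from 1 to 0, and site calls of the second experiment from 77 to 67. With only peaks within 1000 bp, H3K27Ac went from 2 to 1 and 2 of 8 counts that moved rose: RNAPII-pS5 1 to 2 (IL-4 PT) and RNAPII-pS2 0 to 1 (LPS). RNAPII-pS5 and RNAPII-pS2 (IL-4 PT under LPS) fell to 0, and p65 fell from 2 to 1 (LPS) and 1 to 0 (IL-4 PT under LPS, LPS after IL-4 PT). By the highest peak, H3K27Ac and p65 (LPS) fell from 2 to 1 and p65 (IL-4 PT under LPS) from 1 to 0. With the upper 50% of peaks, H3K27Ac and p65 (LPS) fell to 1, p65 (IL-4 PT under LPS, LPS after IL-4 PT) to 0, and counts rose to 2 for RNAPII-pS5 (IL-4 PT) and RNAPII-pS2 (LPS, IL-4 PT) and to 1 for RNAPII-pS5 (interaction), RNAPII-pS2 (LPS after IL-4 PT, interaction), and p65 (IL-4 PT, interaction). Its site calls were 2 for PU.1, 0 for p300, 1 for HDAC1 and HDAC3, and 10 of 23, 16 of 26, and 9 of 28 in number for RNAPII-pS5, RNAPII-pS2, and p65. With a peak in every sample or intergenic peaks included, the 3 polymerase counts that rested on the Myc gene score were 0 each. With intergenic peaks, Myc was tested and its calls were lost. The setting with a peak in every sample did not test Myc for polymerase, Mxd1 for RNAPII-pS5, or Mxi1 for p65. Each of them lacked a peak in some lists, so the filter removed it and no call was possible. With a peak in every sample, RNAPII-pS5 (LPS after IL-4 PT) was 0, RNAPII-pS2 (LPS after IL-4 PT) 1, and p65 1, 1, and 0 (LPS, IL-4 PT, IL-4 PT under LPS). With intergenic peaks, RNAPII-pS5 (interaction) was 1, RNAPII-pS2 (LPS after IL-4 PT) 2, and p65 0 (LPS, IL-4 PT under LPS, LPS after IL-4 PT). By ranks, RNAPII-pS2 was 1, 1, and 0 (LPS, IL-4 PT, IL-4 PT under LPS), and p65 1 and 2 (LPS, LPS after IL-4 PT). Without centering, p65 was 2 and 1 (LPS after IL-4 PT, interaction) and p300 sites 0. Filling after centering gave 0 for RNAPII-pS2 (IL-4 PT under LPS), 2 for p65 (LPS after IL-4 PT), and 3 p300 sites. Requiring 50% of a site gave 1 RNAPII-pS5 site after 1 hr and 0 p300 sites. A floor 4 times as high gave 0 for RNAPII-pS5 and 1 for RNAPII-pS2 and 3 for p65 (LPS after IL-4 PT), 1 for RNAPII-pS2 (IL-4 PT), 0 p300 sites, and 6 and 14 sites for RNAPII-pS5 and RNAPII-pS2.

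With 1 library left out, counts ranged from 0 to 0 (H3K27Ac), 0 to 1 (RNAPII-pS5 in all 4 comparisons of 2 groups, RNAPII-pS2 for IL-4 PT and IL-4 PT under LPS, p65 for IL-4 PT under LPS), 0 to 2 (RNAPII-pS2 with LPS), and 1 to 2 (p65 with LPS). Site calls ranged from 2 to 3 for H3K27Ac, 0 to 2 for p300, and 17 to 40 for p65, with the lowest, 17 and 18, without ctrl/ctrl replicate 1 and 2. Of 91 called differences that were read, 44 held without any 1 library and 47 did not.

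The sign turned in 33 cases, 26 of them with the higher floor, where a group without peaks is filled in. With that floor RNAPII-pS5 sites were at 0.63 (LPS), 0.44 (IL-4 PT), and -0.63 (interaction) for Mxi1 +1135, -0.36 and 0.35 (LPS, IL-4 PT under LPS) for Mxd1 +1605, -0.40 for Myc +6138, and 0.60 for Max +4584. RNAPII-pS2 sites were at -0.14 for Max +362, 0.087, 0.33, and -0.27 (LPS, IL-4 PT, interaction) for Mxi1 -6876, and -0.51 and 0.38 for Mxd1 +1363. p65 gene scores were -0.20 (Mxi1, LPS) and -0.91 (Mxd1, LPS after IL-4 PT). p65 sites with LPS were at -0.13 and -0.49 (Mnt -777, +7404), -0.22 (Max -124019), -0.39 (Myc +13633), and -0.19 (Mxi1 -1494), and otherwise at -0.068 (Max -72984), -0.28 and -0.47 (Max -131222), -0.75 (Max -98849), -0.22 (Myc +13633), and -0.061 (Mxi1 +2936). The others were H3K27Ac Mxi1 near the start (1.47), H3K27Ac Max by highest peak (-0.21), Myc +6138 with the upper 50% (-0.20) or 50% of the site (-0.026), RNAPII-pS2 Max with the upper 50% (-2.92 and 2.61 for LPS and the interaction), and p65 Mnt with intergenic peaks (-0.14). The causes of the changes not named here were not tested.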
